A study of Drosophila melanogaster with 8 samples.

Results

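The Mst(3)CGP genes encode small proteins of the Drosophila melanogaster sperm tail that are rich in cysteine, glycine and proline. The family was taken by symbol from a table of read counts, and all 7 members were present among its 22887 features: Mst84Da, Mst84Db, Mst84Dc and Mst84Dd, Mst87F, and Mst98Ca and Mst98Cb. The counts come from total RNA of dissected testes of flies 5 days old, in 4 groups of 2 libraries from independent dissections. The groups are a Tailor mutant, a Dis3L2 mutant, a Tailor/Dis3L2 double mutant and the strain w1118 as control. Tailor is a terminal uridylyltransferase, which adds uridines to RNA ends, and Dis3L2 is an exonuclease that degrades uridylated RNA. The mutant alleles and parent strains are details not given in the sources used here, so a difference of strain and one of mutation cannot be told apart.

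Spermatogenesis in the fly depends on messages that are made early and used late. Genes of this family are transcribed in primary spermatocytes, and their mRNAs are kept silent through meiosis and translated only in elongating spermatids, when the flagellum is built. Translation is held back by a short element near the start of the mRNA, the translational control element. In RNA from whole testes, fewer cells of a type and less RNA per cell cannot be told apart.

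All members lie on chromosome arm 3R (dm6 coordinates, 1-based) in 3 places. The Mst84D genes form a cluster of 2956 bp at 3R:7363307-7366262. Mst84Da (FBgn0004172) lies on the plus strand at 3R:7365850-7366262. Mst84Db (FBgn0004173, 3R:7365160-7365627), Mst84Dc (FBgn0004174, 3R:7364254-7364673) and Mst84Dd (FBgn0004175, 3R:7363307-7363773) lie on the minus strand. These 4 genes have 2 exons each and coding sequences for 55 to 74 amino acids. Mst87F (FBgn0002862) lies alone on the minus strand at 3R:13827151-13828008 and codes for 56 amino acids. Mst98Ca (FBgn0002865, 3R:28291338-28292656) and Mst98Cb (FBgn0004171, 3R:28292798-28293863) follow each other on the plus strand, 141 bp apart, each as a single exon. They code for 334 and 265 amino acids and are the long members, with 1319 and 1066 nt of exon, against 358 to 623 nt in the other 5.

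Read counts of the members ranged from 4828 to 40474 per library, of library totals between 9781275 and 30059737. The family took 0.336% to 0.568% of all counts. Tailor had 19.0 and 20.5 CPM (counts scaled to a common library size) in the Tailor mutant, 96.8 and 95.6 CPM in the Dis3L2 mutant, 22.8 and 21.1 CPM in the double mutant and 82.6 and 87 CPM in w1118. Dis3L2, which stands in the table as CG16940, had 89.6 and 93.9 CPM in the Tailor mutant, 9.99 and 10.6 CPM in the Dis3L2 mutant, 30.7 and 30.8 CPM in the double mutant and 115 and 117 CPM in w1118. Tailor mutant replicate 1 stood apart from replicate 2 for the family. The correlations, and some of the members' fold changes and of the list results, are given with and without it. The testis was checked by 7 early germline markers, none at 0 in any library, whose summed level was 148 to 172 CPM in the Tailor mutant, 205 to 209 CPM in the Dis3L2 mutant, 249 to 252 CPM in the double mutant and 173 to 176 CPM in w1118. The 5 cyst cell markers, the somatic companions of the germ cells, summed to 67.7 and 70.8 CPM in the Tailor mutant, 86.4 and 89.4 CPM in the Dis3L2 mutant, 95.2 and 107 CPM in the double mutant and 72.0 and 69.0 CPM in w1118, with none at 0.

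Per length of exon, the short members were the more abundant ones in every group. In w1118, the levels as CPM per kilobase of exon (RPKM) were 1691 ± 8.0 for Mst87F, 1514 ± 135 for Mst84Db, 1424 ± 65.7 for Mst84Da, 1324 ± 23.8 for Mst84Dc, 1010 ± 73.4 for Mst84Dd, 653 ± 1.1 for Mst98Ca and 372 ± 1.2 for Mst98Cb (SD, n = 2 each). This order was the same in all 4 groups, and in w1118 only the neighbours Mst84Db and Mst84Da overlapped. In the Tailor mutant the 5 short members overlapped from neighbour to neighbour. Among 11589 protein-coding genes tested, the w1118 level put Mst87F at place 31 and Mst98Cb at place 212. The length of Mst87F sums the exons of 2 annotated transcripts.

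**Figure D1:**
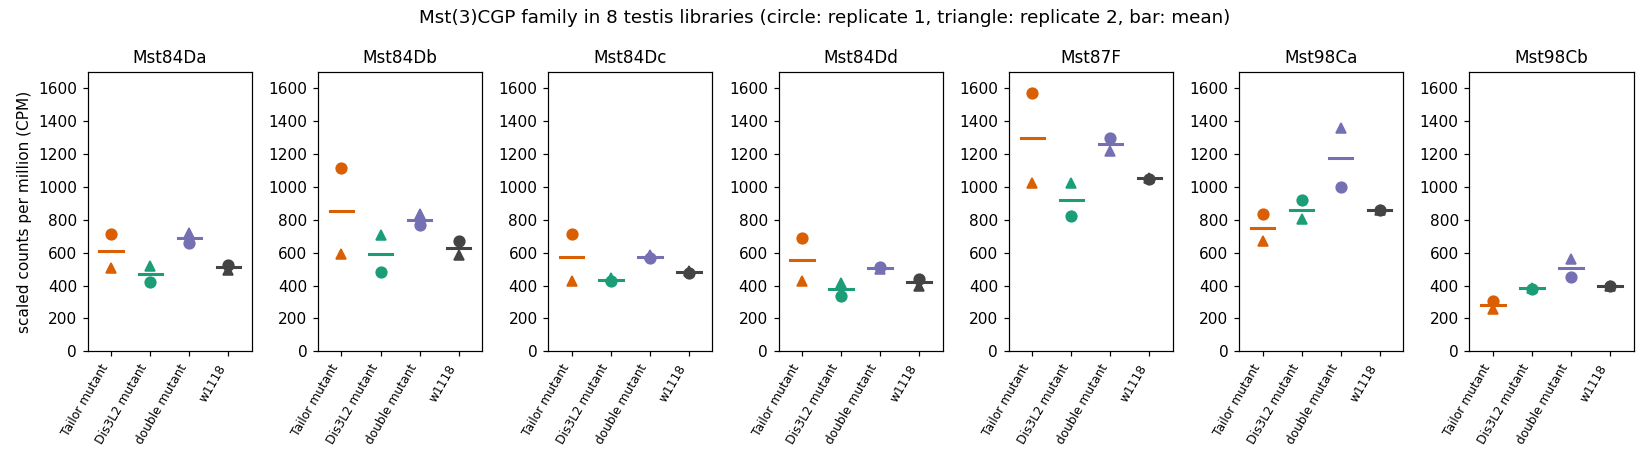
CPM of each family member, from 0 on a linear axis, in the Tailor mutant, the Dis3L2 mutant, the double mutant and w1118. Each point is a library (circle, replicate 1; triangle, replicate 2) and each bar the mean of the 2 libraries; Tailor mutant replicate 1 is the highest point for the Mst84D genes other than Mst84Da, where double mutant replicate 2 reaches 719 CPM, and for Mst87F.

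The question put by the Tailor mutant libraries beside w1118 is whether these stored mRNAs depend on the uridylyltransferase. None of the 7 members passed the test of edgeR at an adjusted p of 0.05. The short members had higher means in the mutant, with 1 of its 2 libraries above w1118, and the Mst98C pair stood lower in both mutant libraries. Over all 14246 features tested, 2% were called in this comparison. The 3 mutants share the w1118 libraries, so their values against w1118 are given side by side and not as separate evidence.

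Mst84Da had 712 and 506 CPM in the Tailor mutant, against 527 and 493 CPM in w1118. Mst84Db had 1114 and 590 CPM in the Tailor mutant, against 668 and 589 CPM in w1118. Mst84Dc had 712 and 430 CPM in the Tailor mutant, against 475 and 487 CPM in w1118. In each, Tailor mutant replicate 1 was above both w1118 libraries, and replicate 2 was between or below them, so the groups overlapped. Mst84Dd, the least abundant of the cluster, had 688 and 425 CPM in the Tailor mutant, against 441 and 398 CPM in w1118. Mst87F, a member much used in work on translational control, had 1574 and 1025 CPM in the Tailor mutant, against 1050 and 1057 CPM in w1118. The fitted log2 fold changes of these 5 genes ran from 0.25 ± 0.22 for Mst84Dc to 0.44 ± 0.31 for Mst84Db (SE), and the lowest adjusted p among them was 0.480, that of Mst84Dd.

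Mst98Ca had 833 and 669 CPM in the Tailor mutant, against 862 and 860 CPM in w1118, a log2 fold change of -0.20 ± 0.19 (adjusted p = 0.726 by edgeR). Mst98Cb had 304 and 255 CPM in the Tailor mutant, against 395 and 397 CPM in w1118, a log2 fold change of -0.50 ± 0.15 (unadjusted p = 0.0114, adjusted p = 0.181 by edgeR). For both genes the groups did not overlap, which held for 44.2% of all features. Mst98Cb was the only member with an unadjusted p under 0.05, at rank 898 of 14246 features, and DESeq2 called 0 members. Without Tailor mutant replicate 1 the log2 fold changes of Mst84Da, Mst84Db, Mst84Dc and Mst87F turned to -0.0033, -0.082, -0.15 and -0.030. Without replicate 2, the log2 fold changes were 0.57 for Mst84Dc and 0.72 for Mst84Dd.

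The Dis3L2 mutant against w1118 asks whether the exonuclease limits the level of the family. The fitted log2 fold changes of the members ran from -0.19 to 0.00052. None passed the test (0 had an unadjusted p under 0.05 and DESeq2 called 0). Of all features, 9.22% were called. Mst98Ca had 920 and 803 CPM in the Dis3L2 mutant, against 862 and 860 CPM in w1118. Mst98Cb had 382 and 384 CPM in the Dis3L2 mutant, against 395 and 397 CPM in w1118. Mst87F had 821 and 1024 CPM in the Dis3L2 mutant, against 1050 and 1057 CPM in w1118. Mst87F and Mst98Cb thus lay below w1118 without overlap, as did Mst84Dc. Non-overlap held for 61.8% of all features.

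Among the Mst84D genes, Mst84Da had 422 and 521 CPM in the Dis3L2 mutant, against 527 and 493 CPM in w1118. Mst84Db had 482 and 707 CPM in the Dis3L2 mutant, against 668 and 589 CPM in w1118. Mst84Dc had 425 and 447 CPM in the Dis3L2 mutant, against 475 and 487 CPM in w1118. Only Mst84Dc of these 3 genes was below w1118 in both libraries. Mst84Dd had 335 and 417 CPM in the Dis3L2 mutant, against 441 and 398 CPM in w1118. The lower value of Mst84Da, Mst84Db, Mst84Dc and Mst84Dd was each time that of Dis3L2 mutant replicate 1, in which ribosomal RNA features took 24.6% of counts, against 1.43% in replicate 2. The part of this share in the result was not tested.

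The size of change that the Dis3L2 data leave room for is given by the 95% intervals of the fit. For Mst98Cb the interval of the log2 fold change ran from -0.40 to 0.30, and for Mst98Ca from -0.45 to 0.46. For Mst84Db, the widest, it ran from -0.80 to 0.64. A 2-fold rise of any member in the Dis3L2 mutant therefore lay outside its interval.

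**Figure D2:**
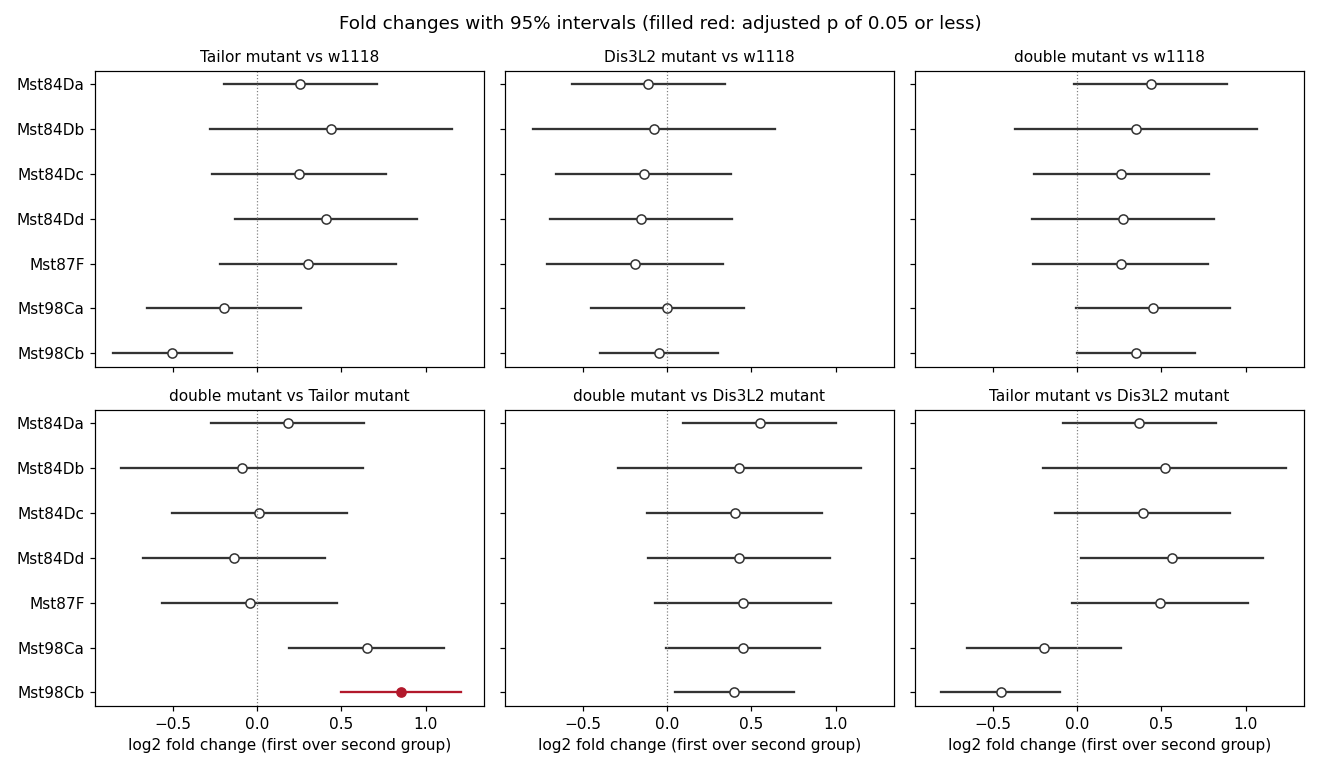
Log2 fold changes of the 7 members with their 95% intervals from the edgeR fit, in 6 comparisons, with the first-named group over the second. Open circles did not pass the test; the single filled point is Mst98Cb in the double mutant against the Tailor mutant, at 0.85.

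Loss of both enzymes is read from the double mutant beside w1118. All 7 members were higher in both double mutant libraries than in both w1118 libraries, by modest amounts, and none passed the test. Non-overlap held for 69.9% of all features and, with the mutant higher, for 31.9%, and 11.6% were called. No member had an unadjusted p under 0.05, and DESeq2 called 0. Early germline markers (249 to 252 CPM in the double mutant, 173 to 176 CPM in w1118) and cyst cell markers (95.2 to 107 CPM in the double mutant, 69.0 to 72.0 CPM in w1118) were higher as well, and their part in the family's values was not tested.

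Mst98Ca had 998 and 1357 CPM in the double mutant, against 862 and 860 CPM in w1118, a log2 fold change of 0.45 ± 0.19 (adjusted p = 0.168 by edgeR). Mst98Cb had 451 and 559 CPM in the double mutant, against 395 and 397 CPM in w1118, a log2 fold change of 0.35 ± 0.15 (adjusted p = 0.167 by edgeR). Mst84Da had 661 and 719 CPM in the double mutant, against 527 and 493 CPM in w1118, a log2 fold change of 0.44 ± 0.19 (adjusted p = 0.179 by edgeR). These 3 genes had the highest fold changes of the family and the lowest p.

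Mst84Db had 767 and 834 CPM in the double mutant, against 668 and 589 CPM in w1118. Mst84Dc had 567 and 585 CPM in the double mutant, against 475 and 487 CPM in w1118. Mst84Dd had 510 and 502 CPM in the double mutant, against 441 and 398 CPM in w1118. The 2 double mutant libraries lay close together for these genes although their totals differed, 30059737 and 9781275 counts. Mst87F had 1299 and 1220 CPM in the double mutant, against 1050 and 1057 CPM in w1118. The family's median log2 fold change was 0.35, beside -0.057 over all features. Scaled on the summed counts of other sperm genes in place of all genes, Mst87F, Mst84Dc and Mst84Dd turned to -0.083, -0.079 and -0.071 and the highest member was Mst98Ca at 0.11. That scaling moved the median of all features to -0.40.

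Against the Tailor mutant, the double mutant had 1 member called, Mst98Cb. It rose, with 451 and 559 CPM in the double mutant, against 304 and 255 CPM in the Tailor mutant, a log2 fold change of 0.85 ± 0.15 or 1.81-fold (adjusted p = 0.0154 by edgeR). Mst98Ca had 998 and 1357 CPM in the double mutant, against 833 and 669 CPM in the Tailor mutant, a log2 fold change of 0.65 ± 0.20 (adjusted p = 0.0658 by edgeR), which passed with DESeq2 (adjusted p = 0.0107). This 1 call among 7 members stands beside all features, of which 14.7% were called and 8.13% were called higher. DESeq2 called 2601 of all features here, and edgeR 2090. The groups of both genes did not overlap, as for 56.5% of all features.

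No short member passed this test. Their log2 fold changes between the double mutant and the Tailor mutant were 0.18 ± 0.19 for Mst84Da, -0.091 ± 0.31 for Mst84Db, 0.014 ± 0.22 for Mst84Dc, -0.14 ± 0.23 for Mst84Dd and -0.045 ± 0.22 for Mst87F, and all 5 groups overlapped. Without Tailor mutant replicate 1 all 5 were positive, with Mst84Dc at 0.43, and Mst98Ca stood at 0.82. Mst98Cb stood at 0.99 without Tailor mutant replicate 1, 0.76 without replicate 2 and 0.70 without double mutant replicate 2. Its call did not hold without double mutant replicate 2. The call also ended in a fit of these 4 libraries alone (0.86, adjusted p = 0.0971 by edgeR). In that fit 20 of all features were called, against 2090 in the main fit. It also ended with scaling on other sperm genes (0.43, adjusted p = 0.0501 by edgeR), which moved the median of all features to -0.52.

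Against the Dis3L2 mutant all 7 members were higher in both double mutant libraries, and edgeR called none. The log2 fold changes ran from 0.40 ± 0.15 for Mst98Cb to 0.55 ± 0.19 for Mst84Da. Both had an unadjusted p under 0.05 (0.0313 for Mst98Cb and 0.0242 for Mst84Da), with adjusted p = 0.143 and 0.126 by edgeR. Their ranks by p were 3128 and 2742 among 14246 features. DESeq2 called 1, Mst84Da (adjusted p = 0.0418), and 1769 of all features, where edgeR called 1289. With scaling on other sperm genes Mst98Cb came to 0.044 (adjusted p = 0.827 by edgeR) and Mst98Ca to 0.094 (adjusted p = 0.720). That scaling moved the median of all features to -0.38. Without double mutant replicate 2 the values were 0.25 for Mst98Cb and 0.22 for Mst98Ca. Non-overlap held for 59.7% and, with the double mutant higher, for 28% of all features, and 9.05% were called. The Tailor mutant libraries enter this comparison only through the shared spread, the filter and the scaling. Leaving out either of them raised the number of calls among the members and among all features.

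The single mutants were also set against each other. In the Tailor mutant against the Dis3L2 mutant, the means of the Mst98C pair were lower and those of the short members higher, and edgeR made no call (2 members had an unadjusted p under 0.05, DESeq2 called 0, and 13% of all features were called). Mst98Cb had 304 and 255 CPM in the Tailor mutant, against 382 and 384 CPM in the Dis3L2 mutant, a log2 fold change of -0.45 ± 0.15 (adjusted p = 0.0935 by edgeR). The libraries of Mst98Cb, Mst84Dd and Mst87F did not overlap, as for 50.9% of all features. The 2 members with an unadjusted p under 0.05, Mst98Cb and Mst84Dd, ranked 2764 and 3811 by p among 14246 features. Mst84Dd had 688 and 425 CPM in the Tailor mutant, against 335 and 417 CPM in the Dis3L2 mutant, a log2 fold change of 0.56 ± 0.23 (adjusted p = 0.160 by edgeR). Without Tailor mutant replicate 2 the log2 fold changes of the 5 short members were 0.59 to 0.91. Without replicate 1 that of Mst98Cb was -0.56.

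The interaction sets the log2 change from the Dis3L2 mutant to the double mutant against that from w1118 to the Tailor mutant. It asks whether losing Tailor does the same with and without Dis3L2. The level of Dis3L2 also differed between the Dis3L2 mutant and the double mutant. The interaction was 0.90 ± 0.21 for Mst98Cb (adjusted p = 0.0615 by edgeR) and 0.65 ± 0.28 for Mst98Ca (adjusted p = 0.222 by edgeR). It lay between -0.012 and 0.29 for the short members. None passed (2 had an unadjusted p under 0.05), where 4.08% of all features were called. By the p of edgeR, these 2 genes, Mst98Cb and Mst98Ca, ranked 787 and 3142 among 14246 features. DESeq2 called Mst98Cb (adjusted p = 0.00742), and 1088 of all features, where edgeR called 581. With scaling on other sperm genes the interaction came to 0.47 for Mst98Cb (adjusted p = 0.139 by edgeR) and 0.21 for Mst98Ca. That scaling moved the median interaction of all features to -0.51. Mst98Cb stood at 70.5% of its w1118 level in the Tailor mutant, and at 132% of its Dis3L2 mutant level in the double mutant.

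Ratios between members of 1 library do not depend on a single scaling factor for that library, though scaling along gene length would change those of long to short members. Mst98Ca and Mst98Cb together made up 19.1% and 23.7% of the family's reads in Tailor mutant libraries, 34.4% and 27.6% in Dis3L2 mutant libraries, 27.6% and 33.2% in double mutant libraries, and 28.5% and 29.4% in w1118. Both Tailor mutant libraries lay below the 6 other libraries. No test was made of this share. Within the pair, the ratio of Mst98Ca to Mst98Cb reads was 2.74 and 2.62 in Tailor mutant libraries, 2.41 and 2.09 in Dis3L2 mutant libraries, 2.21 and 2.43 in double mutant libraries and 2.18 and 2.17 in w1118. The Tailor mutant again held the highest values, the lower of which, 2.62, was above the 2.43 of double mutant replicate 2.

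**Figure D3:**
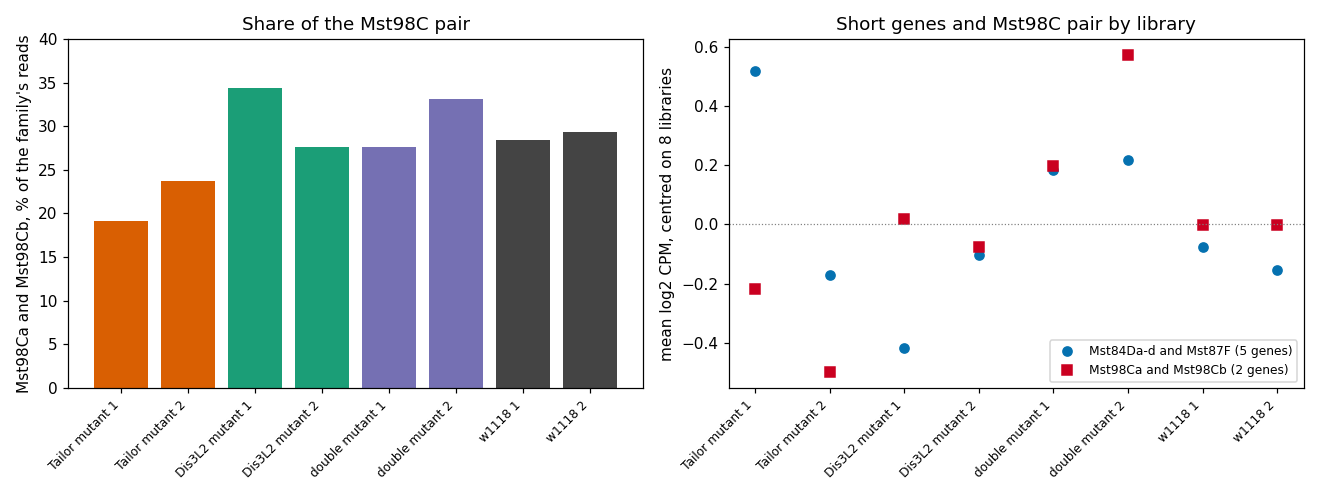
Left, the share of the family's reads that came from Mst98Ca and Mst98Cb in each library, as bars from 0; both Tailor mutant libraries, at 19.1% and 23.7%, lie below the rest. Right, the mean log2 CPM of the 5 short members (circles) and of the Mst98C pair (squares) after each gene was centred on its mean over the 8 libraries; in Tailor mutant replicate 1 the short members stood at 0.52 and the pair at -0.22.

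Across the 8 libraries the 5 short members followed each other closely although they come from 2 places in the genome. Pearson's r of log2 CPM ran from 0.90 to 0.98 over their 10 pairs, and was 0.98 between Mst87F and Mst84Dd. It was 0.91 between Mst98Ca and Mst98Cb, and between a short and a long member it ran from -0.051 to 0.51. These r describe 8 libraries that share depth and composition, and no test was made of them. Without Tailor mutant replicate 1 the r over 7 libraries ran from 0.81 to 0.97 among the short members, was 0.94 within the Mst98C pair and ran from 0.45 to 0.81 between a short and a long member, so the low r between the classes rest on that library.

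Gene length was read beside these values. Over 253 other protein-coding genes with less than 500 nt of exon and at least 5 CPM, the median log2 CPM, centred on the 8 libraries, was 0.46 and -0.10 in Tailor mutant libraries, -0.25 and -0.0021 in Dis3L2 mutant libraries, 0.029 and -0.11 in double mutant libraries and 0.15 and 0.019 in w1118. The short family members had means of 0.52 and -0.17 in Tailor mutant libraries, -0.42 and -0.10 in Dis3L2 mutant libraries, 0.18 and 0.22 in double mutant libraries and -0.077 and -0.15 in w1118 on the same scale. Tailor mutant replicate 1 was thus the highest and Dis3L2 mutant replicate 1 the lowest library for both, whereas the double mutant stood above w1118 for the family and not for other short genes. Over 2618 genes of 3000 nt and more, Tailor mutant replicate 1 lay at -0.23.

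With each library scaled along gene length, a setting added after the data were seen, the log2 fold changes of the short members in the Tailor mutant against w1118 came to 0.13 to 0.30, and that of Mst98Cb to -0.53 (adjusted p = 0.102 by edgeR). Under it Mst84Da passed in the double mutant against w1118 (0.71, adjusted p = 0.0166 by edgeR). Mst98Cb kept its call against the Tailor mutant (0.86, adjusted p = 0.00822), and the interaction of Mst98Cb passed (0.93, adjusted p = 0.0339). In the same order, 2290, 2888 and 1081 of all features were called in these comparisons under it.

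**Figure D4:**
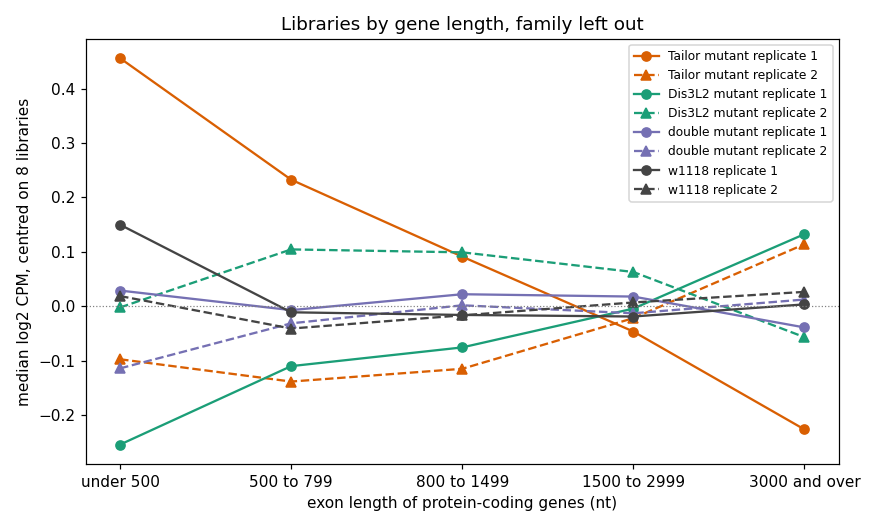
Median log2 CPM of protein-coding genes outside the family, each gene centred on its mean over the 8 libraries, by class of exon length in nt (253, 800, 2108, 3014 and 2618 genes from short to long). Each line is a library; Tailor mutant replicate 1 runs from 0.46 for the shortest class to -0.23 for the longest, while the other 7 libraries stay between -0.25 and 0.15.

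Accessory gland markers were also highest in Tailor mutant replicate 1. The summed level of 13 accessory gland genes, whose products enter the seminal fluid, was 41765 and 10644 CPM in the Tailor mutant, 3814 and 5016 CPM in the Dis3L2 mutant, 14875 and 11144 CPM in the double mutant and 13137 and 12524 CPM in w1118, with none of the 13 at 0. The 7 muscle sheath genes summed to 715 and 835 CPM in the Tailor mutant, 413 and 401 CPM in the Dis3L2 mutant, 454 and 656 CPM in the double mutant and 499 and 482 CPM in w1118. The 5 fat body genes summed to 165 and 204 CPM in the Tailor mutant, 60.5 and 67.6 CPM in the Dis3L2 mutant, 96.7 and 79.4 CPM in the double mutant and 206 and 166 CPM in w1118, with up to 1 of them at 0. The 5 midgut genes summed to 0.401 and 71.9 CPM in the Tailor mutant, 40.02 and 0.642 CPM in the Dis3L2 mutant, 1.09 and 1.04 CPM in the double mutant and 35.4 and 415 CPM in w1118, with up to 2 of them at 0. The part of these tissues in the family's values was not tested.

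The nearest genes on the chromosome were read beside the family. MstProx, which codes for a Toll-family receptor, overlaps Mst84Da on the other strand over 269 of its 358 nt of exon. MstProx had 35 to 261 counts per library, far below Mst84Da, and without a stated strand setting reads of the overlap cannot be told apart. The noncoding CR43300 shares 41 nt with Mst87F on the other strand and had 0.441 to 1.19 CPM. UQCR-14L, which begins 184 bp past Mst98Cb and encodes a respiratory chain subunit, had 90.4 and 57.7 CPM in the Tailor mutant, 60.3 and 80.6 CPM in the Dis3L2 mutant, 71.2 and 66.6 CPM in the double mutant and 60.5 and 60.1 CPM in w1118. Its highest library was Tailor mutant replicate 1, in which Mst98Cb was below w1118. CG17944, next to Mst84Dd, had 192 and 111 CPM in the Tailor mutant, 117 and 140 CPM in the Dis3L2 mutant, 156 and 144 CPM in the double mutant and 117 and 125 CPM in w1118, with Tailor mutant replicate 1 the highest. Nsf2, next to Mst87F and a homolog of the membrane fusion ATPase NSF, rose in the Tailor mutant against the Dis3L2 mutant (0.63 ± 0.14, adjusted p = 0.0324 by edgeR), but did not pass without Tailor mutant replicate 1 (0.56, adjusted p = 0.0568). CG34437, next to Mst98Ca, fell in that comparison (-2.88 ± 0.70, adjusted p = 0.0384 by edgeR), from few reads, with 4 and 1 counts in the Tailor mutant, against 15 and 18 counts in the Dis3L2 mutant. That call held without Tailor mutant replicate 1 (adjusted p = 0.0239).

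Genes whose log2 CPM followed the family's mean most closely, among 9394 with at least 5 CPM, included CG8136 (r = 0.99), Pglym87 (0.97), CR44081 (0.97), CG33110 (0.96) and CG10365 (0.96), over 8 libraries. CG8136 was again first (0.99) without Tailor mutant replicate 1, and the other 4 genes then had r of 0.95 to 0.96 at places 30 to 53. CG8136 ranged from 434 to 646 CPM. Pglym87, a paralog of phosphoglycerate mutase, ranged from 272 to 437 CPM. None of these 5 genes was called by edgeR in any of the 7 comparisons.

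Other sperm genes were read from 4 lists. Of 13 other late transcripts of spermatids, which include sperm chromatin proteins and the tail protein gene dj, edgeR called 0 with Tailor lost, 0 with Dis3L2 lost and 1 with both lost, against w1118 (0, 4 and 3 had an unadjusted p under 0.05, and DESeq2 called 0, 2 and 1). Over all features edgeR called 2%, 9.22% and 11.6%, and DESeq2 called 502, 1607 and 2133 features. The list medians were 0.14, 0.18 and 0.25, beside 0.26, -0.11 and 0.35 in the family and 0.024, 0.0012 and -0.057 over all features. The gene called was Mst77F, a linker-histone-like protein of sperm chromatin, with 2121 and 2082 CPM in the double mutant, against 1267 and 1347 CPM in w1118 (0.69 ± 0.16, adjusted p = 0.0363 by edgeR). Tpl94D, a transition protein of the condensing nucleus, rose in the double mutant against the Tailor mutant (0.57 ± 0.13, adjusted p = 0.0334) and against the Dis3L2 mutant (0.87 ± 0.14, adjusted p = 0.0123).

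Of 24 axoneme and tail genes tested, 3 rose and 1 fell in the double mutant against w1118, with a median of 0.22, where 11.6% of all features were called. Tektin-A, a filament protein of flagellar microtubules, had 388 and 440 CPM in the double mutant, against 247 and 269 CPM in w1118 (0.68 ± 0.12, adjusted p = 0.0159 by edgeR). S-Lap5, a leucyl aminopeptidase of sperm, and kl-5, a Y-linked dynein heavy chain, rose as well (1.04 ± 0.13 and 0.58 ± 0.15), and gudu, an armadillo-repeat protein needed for male fertility, fell by 1.08 on the log2 scale. Against the Tailor mutant 7 rose and 1 fell in the double mutant, with a median of 0.50 beside 0.014 in the family, where 14.7% of all features were called and 8.13% were called higher. Dhc62B, an axonemal dynein heavy chain, had 180 and 201 CPM in the double mutant, against 57.5 and 88.5 CPM in the Tailor mutant (1.38 ± 0.26, adjusted p = 0.0171 by edgeR).

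Dic61B, a dynein intermediate chain, was the axoneme gene called in most comparisons. It had 52.3 and 48.2 CPM in the Tailor mutant, 26.6 and 28.1 CPM in the Dis3L2 mutant, 65.1 and 69.8 CPM in the double mutant and 77.3 and 78.7 CPM in w1118. Against w1118 it fell with either single loss, by edgeR (-0.63 ± 0.11, adjusted p = 0.0407, for Tailor; -1.51 ± 0.12, adjusted p = 0.000943, for Dis3L2). In all, 1 axoneme gene fell in the Tailor mutant, and 1 rose and 2 fell in the Dis3L2 mutant, of 24 tested. Over all features 2% and 9.22% were called. Of the list, 6 and 4 had an unadjusted p under 0.05 by edgeR, and DESeq2 called 4 and 3.

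Among 10 genes of germline translation and poly(A) control, 2 rose in the double mutant against w1118 and 5 against the Tailor mutant, with 0 lower in both, beside 11.6% and 14.7% of all features called. Bol, the Boule RNA-binding protein that controls meiotic entry, had 568 and 575 CPM in the Tailor mutant, 1080 and 1001 CPM in the Dis3L2 mutant, 1286 and 1218 CPM in the double mutant and 800 and 833 CPM in w1118. It rose in the double mutant against w1118 (0.62 ± 0.13, adjusted p = 0.0266) and against the Tailor mutant (1.13 ± 0.13, adjusted p = 0.00597), by edgeR. Gld2, a cytoplasmic poly(A) polymerase needed late in spermatogenesis, rose against w1118 (0.61 ± 0.13, adjusted p = 0.0254) and against the Tailor mutant (0.77 ± 0.13, adjusted p = 0.0127). Orb and orb2, of the CPEB family that binds mRNA ends, rose against the Tailor mutant (0.94 ± 0.18 and 1.11 ± 0.23). Against w1118, edgeR called 0 of the 10 with Tailor lost and 0 with Dis3L2 lost (2 and 4 had an unadjusted p under 0.05, and DESeq2 called 1 and 0).

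Of 13 genes that drive transcription in spermatocytes, the meiotic arrest genes of tMAC and the testis TAFs, edgeR called 0 in the Tailor mutant and 0 in the double mutant against w1118 (1 each had an unadjusted p under 0.05, and DESeq2 called 0). In the Dis3L2 mutant 1 fell, topi, a zinc finger subunit of tMAC (-0.58 ± 0.12, adjusted p = 0.0257 by edgeR). The medians were -0.029 with Tailor lost, -0.19 with Dis3L2 lost and -0.061 with both lost.

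The lists were read again without Tailor mutant replicate 1, a setting added after the data were seen, where 23% of all features were called in the double mutant against w1118 and 25.6% against the Tailor mutant. In the double mutant against w1118 the calls were then 2 of 13 late spermatid transcripts, 6 of 24 axoneme and tail genes (5 rose and 1 fell), 4 of 10 translation genes and 1 of 13 meiotic arrest genes. Against the Tailor mutant they were 11 of 24 axoneme and tail genes, none lower, and 4 of 10 translation genes. That library enters the Dis3L2 mutant against w1118 only through the shared spread, the filter and the scaling. The list medians there were 0.17 for late spermatid, -0.036 for axoneme and tail, 0.020 for translation and -0.21 for meiotic arrest genes. Over all features the median was -0.013. In the Tailor mutant against w1118 the list medians were, in the same order, -0.088, -0.23, -0.35 and -0.17, beside 0.013 over all features. The calls given above by name for Mst77F, Tpl94D, Tektin-A, S-Lap5, kl-5, gudu, Dhc62B, Dic61B, bol, Gld2, orb, orb2 and topi held.

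**Figure D5:**
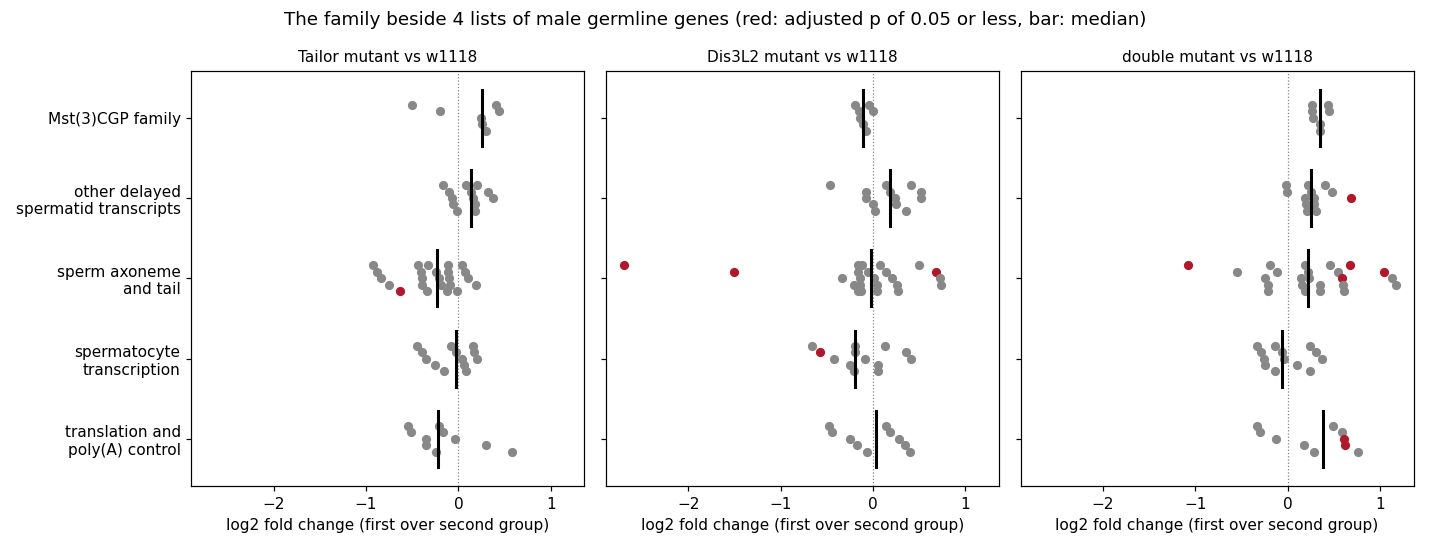
Log2 fold changes of the family and of 4 lists of male germline genes in each mutant over w1118, 1 point per gene, with the median as a bar and genes with an adjusted p of 0.05 or less in red. The family has no red point in the 3 panels; its median is 0.26 for Tailor, -0.11 for Dis3L2 and 0.35 for the double mutant.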

How the data were processed

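Testis RNA of 8 libraries (650 ng of input each) was read in pairs of 50 nt on 2 flow cells after 8 PCR cycles, per the labels' protocols. The submitters' processing notes name Trimmomatic 0.36, HISAT2 and the build dm6. The deposited table holds raw counts, whole numbers per feature. How the authors counted (tool, annotation, strand, reads that match more than 1 place) is not given in the sources used here, so paralogs of this family may share reads. Positions and exon lengths come from Ensembl's BDGP6 annotation, which is dm6.

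The test was edgeR 4.0.16 (R 4.3.3), quasi-likelihood, on all 8 libraries by group, with TMM scaling and filterByExpr at a minimum count of 10. All 7 members passed the filter. P-values of 7 comparisons were adjusted by Benjamini-Hochberg over the 14246 features that passed, 757 of them transposon insertions, with calls at 0.05. Counts at an unadjusted p under 0.05 are given for members and lists only, not for all features. Each SE was derived from the estimate and its F statistic. CPM use scaled library sizes, and SDs are of 2 libraries. The script was tested on simulated data. Alternatives were DESeq2 1.42.0, other scalings and filters, a replicate block, subsets of libraries or features, and scaling along gene length.

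Members and lists were chosen with earlier results of these data known. Named genes are the members, their neighbours, the 6 genes of most similar pattern (1 is not reported here) and called genes of the lists; Dhc93AB, at low level, and some other called genes are not described. ProtA, ProtB, Taf12L and SP stand in the table for Mst35Ba, Mst35Bb, rye and Acp70A, and wampa was not matched.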

Additional observations from a re-analysis of the deposited data

Results flagged for a closer look

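For the Mst98C pair, the Tailor mutant against w1118 and the double mutant against the Dis3L2 mutant had opposite directions. Libraries overlapped in neither, which held for 44.2% and 59.7% of all features. Dis3L2 itself had 30.7 and 30.8 CPM in the double mutant, against 9.99 and 10.6 CPM in the Dis3L2 mutant. These 2 groups therefore did not differ in Tailor alone. Mst98Ca stood at -0.20 in the Tailor mutant against w1118 and at 0.45 in the double mutant against the Dis3L2 mutant (log2 fold changes). Mst98Cb stood at -0.50 in the Tailor mutant against w1118 and at 0.40 in the double mutant against the Dis3L2 mutant. Likewise, Mst98Cb stood at -0.049 in the Dis3L2 mutant against w1118 and at 0.85 in the double mutant against the Tailor mutant. The difference itself, the interaction, did not pass with edgeR (0.65, adjusted p = 0.222, for Mst98Ca; 0.90, adjusted p = 0.0615, for Mst98Cb). Over the alternatives its adjusted p for Mst98Cb ran from 0.00742 with DESeq2 to 0.231 without w1118 replicate 1. The positive side was smaller with scaling on other sperm genes. The double mutant against the Dis3L2 mutant then came to 0.044 (adjusted p = 0.827 by edgeR) for Mst98Cb and 0.094 (adjusted p = 0.720) for Mst98Ca. The interaction came to 0.47 (adjusted p = 0.139) for Mst98Cb and 0.21 for Mst98Ca. That scaling moved the median of all features to -0.38 in the comparison with the Dis3L2 mutant and to -0.51 in the interaction. With relative log expression and upper quartile scaling, the double mutant against the Dis3L2 mutant stood at 0.44 and 0.43 for Mst98Cb. For Mst98Ca it stood at 0.49 and 0.48. Without double mutant replicate 2 the values against the Dis3L2 mutant were 0.25 for Mst98Cb and 0.22 for Mst98Ca, and the interactions 0.74 and 0.41.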

How the results depend on the processing

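The number of members called moved in these settings. In the double mutant against the Tailor mutant it was 1, and 0 with scaling on other sperm genes or only the groups compared, 2 with DESeq2, no filter or scaling by gene length (a setting chosen after seeing the data), and 0 to 3 when single libraries were left out. In the double mutant against w1118 it was 0, and 2 with only the groups compared, 1 with scaling by gene length and 0 to 1 without single libraries. In the double mutant against the Dis3L2 mutant it was 0, and 1 with DESeq2 or only the groups compared, 2 with scaling by gene length and 0 to 4 without single libraries. For the interaction it was 0, and 1 with DESeq2, no filter or scaling by gene length, and 0 to 1 without single libraries. Without single libraries it was 0 to 2 in the Tailor mutant against w1118 and 0 to 5 against the Dis3L2 mutant, where the highest counts came without Tailor mutant replicate 2. Over all features the double mutant against the Tailor mutant had 2090 calls, and 4244 with scaling on other sperm genes. It had 20 with only the groups compared, 2601 with DESeq2, 2331 with no filter and 2888 with gene length. Against w1118 it had 1648, and 3786 with only the groups compared. Against the Dis3L2 mutant it had 1289, and 1769 with DESeq2 and 2152 with only the groups compared. The interaction had 581, and 783 with no filter and 1088 with DESeq2. The causes were not tested. Relative log expression and upper quartile scaling, a stricter filter, and leaving out ribosomal RNA or transposon insertions changed no count of members called.

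Of 924 member values over the alternatives, 837 kept direction and side of the test and 51 changed sign, none of them a called value. Mst98Ca in the Dis3L2 mutant against w1118, at 0.00052, was -0.0067 (relative log expression), -0.023 (upper quartile), -0.0063 (DESeq2), -0.0045 (no filter), -0.0054 (stricter filter), -0.010 (groups compared), -9.5e-05 (replicate block), -0.013 (no ribosomal RNA), -0.017 (gene length) and -0.11 to 0.12 without single libraries. The interaction of Mst84Db, at -0.012, was 0.021, 0.027, 0.021 and 0.028 with relative log expression, upper quartile, DESeq2 and no filter, 0.23 with gene length and -0.37 to 0.54 without single libraries. Scaling on other sperm genes gave -0.083, -0.079 and -0.071 for Mst87F, Mst84Dc and Mst84Dd in the double mutant against w1118, -0.23 and -0.39 for Mst84Da and Mst84Dc against the Tailor mutant, and interactions of -0.27, -0.13, -0.27 and -0.40 for Mst87F, Mst84Da, Mst84Dc and Mst84Dd. It moved the median of all features to 0.11 in the Tailor mutant and -0.40 in the double mutant against w1118. Scaling by gene length gave 0.073, 0.21 and 0.15 for Mst87F, Mst84Db and Mst84Dd in the double mutant against the Tailor mutant. Without single libraries the log2 fold changes that changed sign ran as follows. In the Tailor mutant against w1118 they were -0.0033 to 0.48 (Mst84Da), -0.082 to 0.83 (Mst84Db), -0.15 to 0.57 (Mst84Dc) and -0.030 to 0.58 (Mst87F). In the Dis3L2 mutant they were -0.25 to 0.018 (Mst84Da) and -0.35 to 0.16 (Mst84Db). In the double mutant against the Tailor mutant they were -0.021 to 0.45 (Mst84Da), -0.45 to 0.44 (Mst84Db), -0.28 to 0.43 (Mst84Dc), -0.42 to 0.26 (Mst84Dd) and -0.30 to 0.30 (Mst87F). Interactions were -0.14 to 0.58 (Mst84Dc), -0.27 to 0.43 (Mst84Dd) and -0.11 to 0.51 (Mst87F).

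The replicate numbers are not stated to pair libraries; same-numbered deviations correlated between -0.30 and 0.30 over pairs of groups. With a replicate block the double mutant against the Tailor mutant again had 1 member called (Mst98Cb, 0.85, adjusted p = 0.0378 by edgeR). Of all features, 1127 were called there, and no other call of a member changed. Each comparison rests on 2 libraries a group, and the effect of depth was not tested separately.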
